A study of Mus musculus with 6 samples.

Results

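The collagen chain genes are the genes that encode the alpha chains of the collagens, named in the table with Col, the number of the collagen type and the number of the chain. Of the 53801 rows of the table, 44 carried such a name, and the 40 with at least 10 counts summed over the 6 libraries were kept. They were grouped by class into 11 fibrillar chains, 8 chains of basement membrane and network collagens, 6 chains of the beaded collagen VI, 8 chains of FACITs (collagens that bind to the surface of fibrils), 2 multiplexins (collagens of the basement membrane zone with an interrupted helix) and 5 others. The 4 chains left out were Col13a1 with 8 counts in all, Col22a1 with 5, Col26a1 with 3 and Col4a6 with 2.

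RNA was sequenced from PDGFRα+ Pdpn+ stromal cells that had been sorted by flow cytometry from MO5 tumors, which are B16-OVA melanomas grown under the skin of adult mice of the C57Bl/6 background. The 3 DTR libraries came from mice carrying the ADAM12-DTR transgene (DTR+), a bacterial artificial chromosome in which Adam12 sequences drive the diphtheria toxin receptor, so that diphtheria toxin (DT) kills cells that express Adam12. The 3 Ctrl libraries came from littermates without the transgene (DTR−), and every mouse of both groups had received DT. The labels give neither the time of sorting nor the dose for these libraries, and they do not say that each library was a separate animal, so p-values measure the spread between these libraries, which may be technical. The comparison asked how the stromal transcriptome differed once ADAM12+ cells had been depleted.

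A collagen is built from 3 alpha chains wound into a triple helix, and chains of different genes can share a helix. Fibrillar collagens form the load-bearing fibrils of skin, tendon and bone, network collagens form sheets such as the basement membrane under epithelia and around vessels, and beaded filaments of collagen VI link the fibrils to cells. Fibroblasts are the main makers of fibrillar collagen, and in tumors the fibroblasts of the stroma lay down much of the collagen around the cancer cells.

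**Figure D1:**
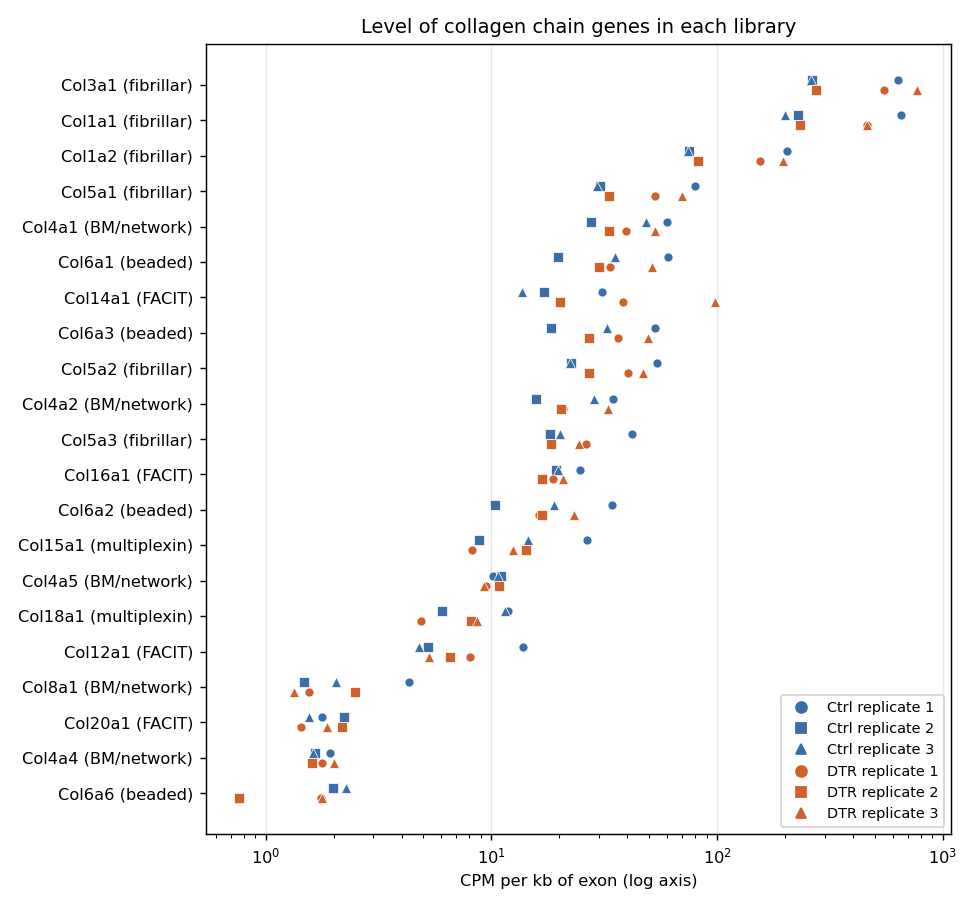
Level of the collagen chain genes with a mean of at least 1 CPM per kb of exon, on a log axis, with 1 symbol per library (blue, Ctrl; orange, DTR). Col3a1, Col1a1 and Col1a2 lead, and for the 5 leading fibrillar chains the circle of Ctrl replicate 1 and the circle and triangle of DTR replicates 1 and 3 lie to the right of the other libraries of their group.

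The libraries held between 22339635 and 34271929 counts on genes. Levels are given as CPM, the counts of a gene scaled to a common library total with TMM factors, or as CPM per kb of exon where genes are compared with each other. A total of 3 counts, taken as the floor, was between 0.0872 and 0.132 CPM, and this covers counting error only. Across genes, r was 0.961 to 0.974 for pairs of libraries from 1 group and 0.953 to 0.974 for pairs from both. The 10 fibroblast marker genes, among them Pdgfra, Pdpn and Dcn, summed to 910, 369 and 587 CPM in Ctrl replicates 1 to 3 and to 889, 482 and 1986 CPM in DTR replicates 1 to 3. The 10 melanoma markers summed to between 16211 and 20316 CPM, so that RNA of pigment cells was present in each of the sorted libraries. In bulk RNA, fewer cells of a type and less RNA per cell cannot be told apart.

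Fibrillar collagen dominated. Col3a1, which forms type III collagen of skin and vessel walls, had the highest level of all chains, with a mean of 460 CPM per kb of exon over the 6 libraries. Col1a1 and Col1a2, the chains of type I collagen, followed with 372 and 131 CPM per kb. These 3 genes held between 65.7% and 77.95% of all collagen counts in a library. The next levels were 49.4 CPM per kb for Col5a1, a chain of the type V collagen that starts fibrils and limits their width, 43.7 for Col4a1 of the basement membrane, 38.5 for Col6a1 of the beaded filaments, 36.4 for the FACIT Col14a1 and 36.1 for Col6a3. The 6 libraries of each of these last 5 chains spanned more than 2-fold, so the order among them was not separated from the spread between libraries. It also rests on summed exon length, as Col5a2, at 35.7 CPM per kb, stood above Col5a1 per kb of the longest coding transcript.

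Collagen made up 1.71%, 0.663% and 0.754% of all counts in Ctrl replicates 1 to 3 and 1.33%, 0.766% and 1.74% in DTR replicates 1 to 3. The means were 1.04% ± 0.578 (SD, n = 3) for Ctrl, against 1.28% ± 0.487 (SD, n = 3) for DTR, and the groups overlapped. Each group thus held libraries with a high share and libraries with less than 0.8%, and the difference of the means, 0.237 percentage points, was smaller than either SD. It was 0.569 points without Ctrl replicate 1 and 0.00744 points without DTR replicate 3. Over the counts of named protein-coding genes without the melanoma markers, the shares were 2.24%, 0.888% and 0.986% in Ctrl and 1.77%, 1.02% and 2.29% in DTR, which kept the same libraries high. The 3 libraries with the highest share, Ctrl replicate 1 and DTR replicates 1 and 3, also had the 3 highest sums of fibroblast markers and the 3 lowest sums of melanoma markers, at 17315, 16974 and 16211 CPM.

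**Figure D2:**
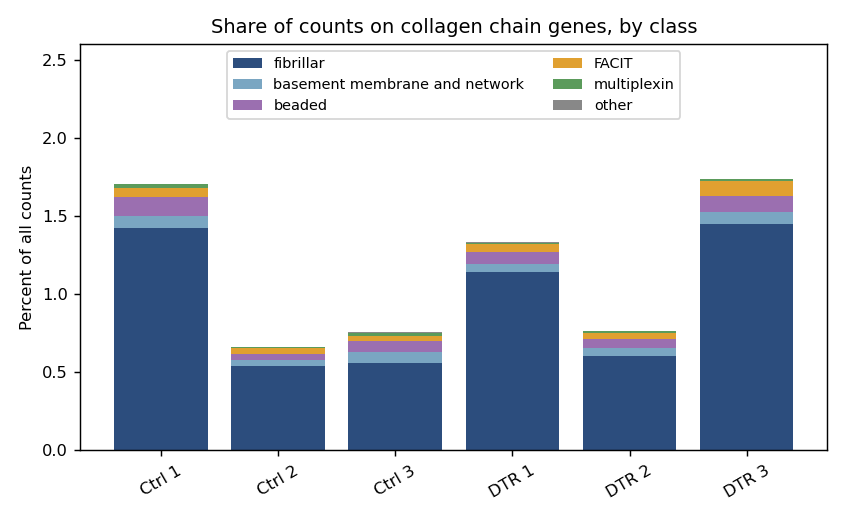
Percent of all counts that lay on collagen chain genes in each library, stacked by class from 0. The fibrillar chains (dark blue) hold between 0.539% and 1.45% of all counts, and their height sets that of the whole bar, which is high in Ctrl replicate 1, DTR replicate 1 and DTR replicate 3.

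Of the 40 chains, 36 had enough counts to be tested, and Col4a3, Col6a4, Col19a1 and Col25a1 did not. Counts were compared with the quasi-likelihood test of edgeR, and p was adjusted after Benjamini-Hochberg over the 15133 genes tested. An adjusted p below 0.05 was seen for 0 of the 36 chains and for 0.0% of all genes tested, and the lowest adjusted p of a chain was 0.604. Below an unadjusted p of 0.05 were 2 of the 36, Col14a1 and Col7a1, against 7.92% of all genes tested. The Ctrl and DTR libraries did not overlap for 2 of the 36, Col11a2 and Col6a6, against 14.5% of all genes tested. DESeq2's Wald test called 0 chains, against 0.173% of all genes to which it gave an adjusted p. These shares of collagen genes were at or below the background of all genes. Log2 fold changes, DTR over Ctrl, were below 0 for 24 chains and above 0 for 12, with a median of −0.15 against −0.0029 for all genes tested. Without Ctrl replicate 1, a fit that held 38 chains, the median was 0.13, with 17 chains below 0 and 21 above. The sign of the median thus depended on this library.

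The collagen chains differed more between libraries of the same group than most genes did. The median SD of log2 CPM within groups was 0.587 over the 36 chains, against 0.229 over all genes tested, and 33 of the 36 chains lay above the latter value. Ctrl replicate 1 had the highest level of all 6 libraries for 19 chains, and it exceeded both other Ctrl libraries for 23. DTR replicate 3 had the highest level for 6 chains and Ctrl replicate 2 for 6. The standard errors (SE) of the log2 fold changes ran from 0.0953 to 1.28 with a median of 0.375, and the 95% intervals of Col1a1, Col1a2, Col3a1, Col5a1 and Col5a2 ran from between −0.97 and −0.56 to between 1.04 and 1.48.

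**Figure D3:**
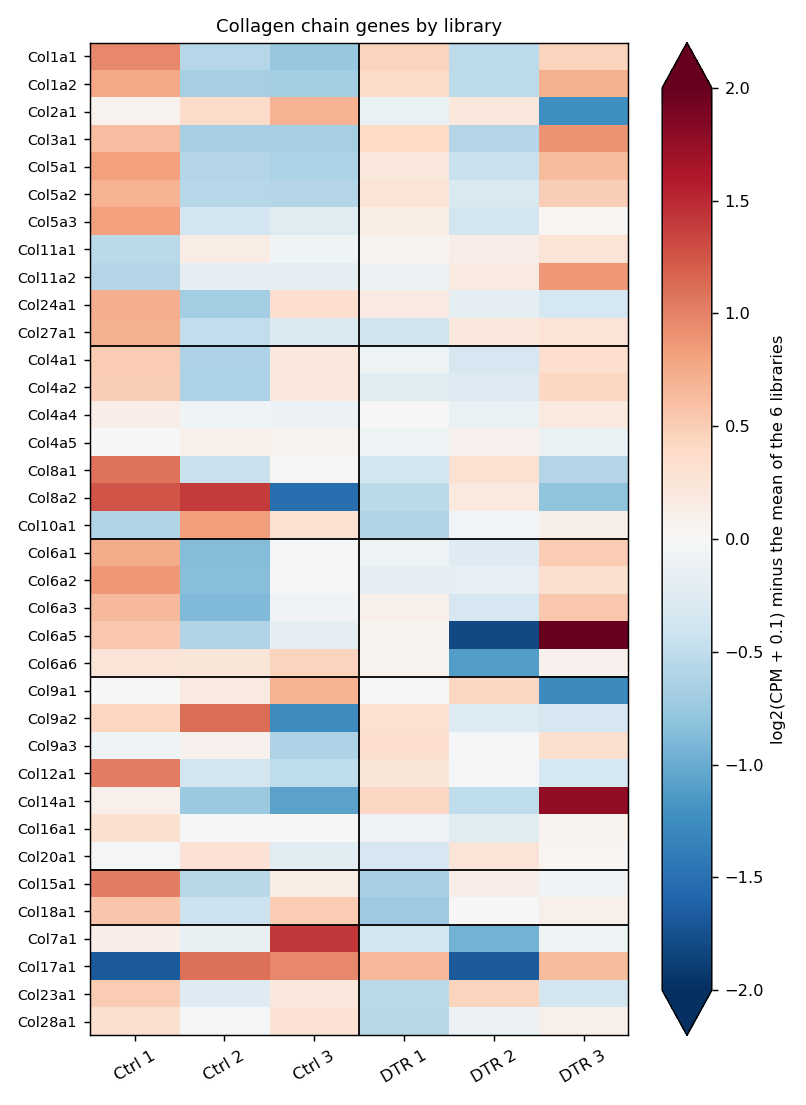
Log2(CPM + 0.1) of each tested chain minus its mean over the 6 libraries (red, above the mean; blue, below), with rows in the order fibrillar, basement membrane and network, beaded, FACIT, multiplexin and other, and a vertical line between Ctrl and DTR. Col1a1, Col1a2, Col3a1, Col5a1 and Col5a2 are red in Ctrl replicate 1 and in DTR replicates 1 and 3 and blue elsewhere, the low fibrillar chains such as Col2a1 and Col11a2 do not share this, and Col4a4 and Col4a5 are pale in every library.

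Among the fibrillar chains, 7 of 11 had a log2 fold change above 0, with a median of 0.16, and 0 of 11 had an unadjusted p under 0.05. The median was 0.56 without Ctrl replicate 1 and −0.21 with the summed fibroblast markers as a covariate, an alternative chosen after seeing the data. Col1a1 (ENSMUSG00000001506, GRCm38 chromosome 11 from 94936224 to 94953042) was at 4285, 1494 and 1312 CPM in Ctrl and at 3019, 1535 and 3019 CPM in DTR. Col1a2 (ENSMUSG00000029661, chromosome 6 from 4504814 to 4541544) was at 2538, 931 and 922 CPM in Ctrl and at 1921, 1028 and 2430 CPM in DTR. Both chains were high in Ctrl replicate 1 and DTR replicates 1 and 3 and low in the other 3 libraries, and the groups overlapped. The log2 fold change was 0.095 (SE 0.462, adjusted p = 0.961) for Col1a1 and 0.29 (SE 0.445, adjusted p = 0.872) for Col1a2 by edgeR. Leaving out Ctrl replicate 1 gave 0.85 and 0.95, with unadjusted p of 0.0205 and 0.0200 and an adjusted p of 0.582 for both by edgeR. The lowest values with 1 library left out were −0.19 for Col1a1, without Ctrl replicate 3, and 0.010 for Col1a2, without DTR replicate 3.

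Col3a1 (ENSMUSG00000026043) and Col5a2 (ENSMUSG00000026042) are neighbours on chromosome 1, from 45311538 to 45349706 and from 45374321 to 45503282, and are transcribed from opposite strands. Col3a1 was at 6252, 2579 and 2564 CPM in Ctrl and at 5387, 2705 and 7592 CPM in DTR, with a log2 fold change of 0.46 (SE 0.443). Col5a2, the partner of Col5a1 in type V collagen, was at 522, 217 and 215 CPM in Ctrl and at 388, 260 and 453 CPM in DTR. Col5a1 was at 681, 256 and 249 CPM in Ctrl and at 451, 282 and 595 CPM in DTR. All 3 had the same high and low libraries as type I collagen, and in both groups their highest and lowest libraries differed by more than the group means did. The log2 fold changes of Col5a1 and Col5a2 were 0.16 (SE 0.420) and 0.21 (SE 0.360). Without Ctrl replicate 1 the log2 fold changes of Col3a1, Col5a1 and Col5a2 were 1.02, 0.81 and 0.76, with an unadjusted p of 0.0287, 0.0216 and 0.00943 and adjusted p of 0.584, 0.582 and 0.582 by edgeR. The lowest values were 0.091 for Col3a1 and −0.11 for Col5a1, both without DTR replicate 3, and −0.0076 for Col5a2, without Ctrl replicate 3.

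The other fibrillar chains were far lower apart from Col5a3, at 24.9 CPM per kb. Col2a1, Col11a1 and Col11a2, known from cartilage, and Col24a1 and Col27a1, known from developing bone and cartilage, had mean levels between 0.136 and 0.716 CPM per kb. Col11a2 was at 1.84, 2.47 and 2.46 CPM in Ctrl and at 2.59, 3.18 and 5.20 CPM in DTR. It was the only fibrillar chain whose groups did not overlap, with a log2 fold change of 0.69 (SE 0.355, adjusted p = 0.651 by edgeR) that was 0.35 without DTR replicate 3. The exact permutation test gave p = 0.1 for Col11a2 (two-sided), which is the smallest p that 3 libraries against 3 allow. Col2a1 had the lowest log2 fold change of the class, −0.72 (SE 0.502), from 1.224, 1.55 and 1.93 CPM in Ctrl to 1.05, 1.35 and 0.441 CPM in DTR, and it was −0.39 without DTR replicate 3.

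Among the basement membrane and network chains, 6 of 7 tested had a log2 fold change below 0, with a median of −0.11. Col4a1 (ENSMUSG00000031502) and Col4a2 (ENSMUSG00000031503), the chains of the basement membrane found in nearly every tissue, lie head to head on chromosome 8. Col4a1 runs on the minus strand from 11198423 to 11312826 and Col4a2 on the plus strand from 11312805 to 11449287, so that the annotated genes share 22 bases. Their RefSeq promoter windows, from 250 bases before to 50 bases after each start, share 78 bases, from 11312777 to 11312854. Both windows are shown, 5′ to 3′ along the strand of each gene. The levels of the chains followed each other from library to library. So did those of Col5a1 and Col5a2, which lie on different chromosomes, and a link to the shared bases was not tested. Capitals mark the shared bases, which are the reverse complement of each other. The window of Col4a1 is chr8:11312777-11313076 on the minus strand and that of Col4a2 is chr8:11312555-11312854 on the plus strand, in GRCm38.p6.
Col4a1: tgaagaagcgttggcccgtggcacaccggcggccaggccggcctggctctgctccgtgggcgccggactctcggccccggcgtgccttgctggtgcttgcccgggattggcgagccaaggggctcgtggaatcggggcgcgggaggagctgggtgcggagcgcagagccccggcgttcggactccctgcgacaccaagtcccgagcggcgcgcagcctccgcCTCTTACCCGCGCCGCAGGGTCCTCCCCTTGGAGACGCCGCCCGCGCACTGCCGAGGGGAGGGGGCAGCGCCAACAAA
Col4a2: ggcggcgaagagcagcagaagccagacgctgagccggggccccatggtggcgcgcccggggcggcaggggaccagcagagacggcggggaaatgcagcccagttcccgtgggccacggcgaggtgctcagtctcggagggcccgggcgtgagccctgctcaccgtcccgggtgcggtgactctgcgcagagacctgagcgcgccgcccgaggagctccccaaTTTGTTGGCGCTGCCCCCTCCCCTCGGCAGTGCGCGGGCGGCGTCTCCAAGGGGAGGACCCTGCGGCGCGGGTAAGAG

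Col4a1 was at 449, 206 and 362 CPM in Ctrl and at 294, 249 and 396 CPM in DTR. Col4a2 was at 229, 105 and 189 CPM in Ctrl and at 138, 135 and 217 CPM in DTR. Unlike type I collagen, both chains were higher in Ctrl replicate 3 than in DTR replicate 1. The log2 fold changes were −0.11 (SE 0.279) for Col4a1 and −0.093 (SE 0.291) for Col4a2, and both turned positive, to 0.14 and 0.15, without Ctrl replicate 1. Each chain spanned 2.18-fold over the 6 libraries, while the ratio of Col4a1 to Col4a2, both per kb of exon, was 1.74, 1.74 and 1.70 in Ctrl and 1.89, 1.63 and 1.62 in DTR, a span of 1.17-fold.

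The steadiest chain was Col4a5, on the X chromosome from 141475385 to 141689234, whose product joins the Col4a3 and Col4a4 chains in the basement membrane of the kidney filter. It was at 68.0, 73.9 and 72.3 CPM in Ctrl and at 63.8, 72.7 and 62.65 CPM in DTR, a span of 1.18-fold, with a log2 fold change of −0.10 (SE 0.0953). Col4a4 was at 20.4, 17.5 and 17.2 CPM in Ctrl and at 18.8, 17.0 and 21.4 CPM in DTR, with a log2 fold change of 0.052 (SE 0.139). Both varied less than Col4a1 and Col4a2, and Col4a4 was highest in DTR replicate 3 and Ctrl replicate 1, as were Col4a1 and Col4a2. The ratio of Col4a5 to Col4a1 per kb, chosen after its values were seen, ran from 0.168 in Ctrl replicate 1 to 0.399 in Ctrl replicate 2. Col4a3 had between 1 and 10 counts per library and was not tested. Col8a1 and Col8a2 encode the short chains of the type VIII network of vessel walls and the cornea. Col8a1 was at 33.7, 11.6 and 16.01 CPM in Ctrl and at 12.1, 19.6 and 10.5 CPM in DTR. Its log2 fold change of −0.54 (SE 0.399) was 0.026 without Ctrl replicate 1. Col8a2, with 26, 28 and 2 counts in Ctrl and 8, 14 and 4 in DTR, had the lowest log2 fold change of all chains, −1.38 (SE 0.914), and its groups overlapped. Col10a1, of growth plate cartilage, was at 0.607 CPM per kb on average.

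Among the beaded chains, Col6a1 and Col6a2 are neighbours on chromosome 10, from 76708792 to 76726168 and from 76595762 to 76623630, and Col6a3 lies on chromosome 1 from 90765923 to 90843971. Their products form 1 molecule with a chain of each kind. Col6a1 was at 265, 86.6 and 155 CPM in Ctrl and at 147, 132 and 226 CPM in DTR. Col6a2 was at 285, 86.0 and 158 CPM in Ctrl and at 135, 139 and 193 CPM in DTR, and Col6a3 was at 638, 219 and 388 CPM in Ctrl and at 434, 323 and 589 CPM in DTR. All 3 were highest in Ctrl replicate 1 and lowest in Ctrl replicate 2, so the range of the Ctrl libraries enclosed that of the DTR libraries. The log2 fold changes were −0.0062 (SE 0.374), −0.18 (SE 0.375) and 0.11 (SE 0.365). They were 0.48, 0.35 and 0.56 without Ctrl replicate 1, and −0.32, −0.51 and −0.20 without Ctrl replicate 2.

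Col6a4, Col6a5 and Col6a6 encode chains that can take the place of the Col6a3 chain, and lie in a row on chromosome 9 from 105687809 to 106096783. Col6a6 was at 18.4, 18.2 and 20.8 CPM in Ctrl and at 16.2, 7.01 and 16.3 CPM in DTR. It was the only beaded chain whose groups did not overlap, with a log2 fold change of −0.54 (SE 0.297, adjusted p = 0.658 by edgeR) that was −0.24 without DTR replicate 2. Col6a5 ranged from 0.161 CPM in DTR replicate 2 to 3.57 CPM in DTR replicate 3, the widest span of the tested chains with a value in every library, and its log2 fold change of 0.89 (SE 0.946) was −0.68 without DTR replicate 3. Col6a4 had 54 counts in all 6 libraries together and was not tested.

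**Figure D4:**
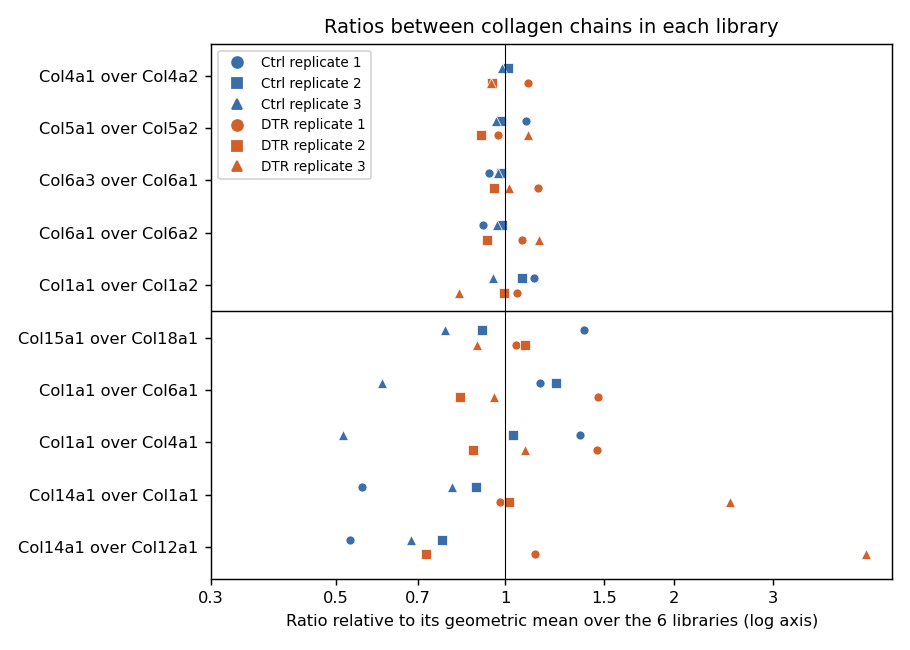
Ratio of levels per kb of exon between pairs of chains in each library, divided by its geometric mean over the 6 libraries, on a log axis. The 5 pairs above the line have products that share a molecule and lie close to 1, while the 5 pairs below the line, chosen after their values were seen, spread wider, with DTR replicate 3 far to the right for Col14a1. Not shown are Col4a1 to Col6a1 and Col3a1 to Col1a1, which share no molecule and spanned 1.41-fold and 1.72-fold. The picked pairs therefore do not show that sharing a molecule marks the close ratios.

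Ratios of chains whose products share a molecule spanned less than the levels of the chains. This was not particular to them, as Col4a1 to Col6a1, which share no molecule, also spanned less than either chain alone, at 1.41-fold. The ratio of Col1a1 to Col1a2 per kb of exon was 3.20, 3.04 and 2.69 in Ctrl and 2.98, 2.83 and 2.35 in DTR, a span of 1.36-fold, while Col1a1 alone spanned 3.27-fold and Col1a2 2.75-fold. The ratio of Col5a1 to Col5a2 spanned 1.21-fold, that of Col6a1 to Col6a2 1.26-fold and that of Col6a3 to Col6a1 1.223-fold. The mean of the Col1a1 ratio was 2.98 ± 0.257 (SD, n = 3) for Ctrl, against 2.72 ± 0.325 (SD, n = 3) for DTR, and the groups overlapped for each of these ratios. The exception was Col8a1 to Col8a2, which spanned 22.96-fold at the low counts of Col8a2. How high a ratio stands depends on the length used, because the exons of Col1a2 sum to 12426 bases and its longest coding transcript to 5348. With the longest coding transcripts the mean over the 6 libraries was 1.36 for Col1a1 to Col1a2, 0.946 for Col5a1 to Col5a2, 1.89 for Col4a1 to Col4a2, 1.16 for Col6a1 to Col6a2 and 1.04 for Col6a3 to Col6a1, and the spans between libraries were as before.

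Ratios of Col1a1 to chains of other classes spanned more, 2.84-fold to Col4a1 and 2.43-fold to Col6a1, while Col4a1 to Col6a1, also of different classes, spanned 1.41-fold, close to the span of Col1a1 to Col1a2. Of pairs in 1 class that share no molecule, Col3a1 to Col1a1 spanned 1.72-fold and Col15a1 to Col18a1 1.765-fold. These pairs were chosen after their values were seen. Col1a1 per kb was 10.9, 8.25 and 4.12 times Col4a1 in Ctrl and 11.7, 7.01 and 8.67 times in DTR, and 10.8, 11.5 and 5.64 times Col6a1 in Ctrl and 13.7, 7.78 and 8.93 times in DTR. Ctrl replicate 3, in which the basement membrane chains held 9.03% and the beaded chains 9.90% of the collagen counts, had the lowest ratio in both cases. In DTR replicate 1 the same classes held 3.99% and 5.53%. The fibrillar share of the collagen counts was 83.5%, 81.4% and 74.2% in Ctrl and 85.8%, 78.5% and 83.6% in DTR, with means of 79.7% ± 4.89 and 82.6% ± 3.70 (SD, n = 3 each) and overlapping groups.

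Among the FACIT chains, 5 of 7 tested had a log2 fold change below 0, with a median of −0.18 that was 0.14 without Ctrl replicate 2. The exception in size was Col14a1 (ENSMUSG00000022371, chromosome 15 from 55307750 to 55520803), which encodes a collagen on the fibrils of skin and other dense connective tissue. It was at 216, 120 and 95.9 CPM in Ctrl and at 269, 142 and 687 CPM in DTR, so that DTR replicate 3 stood far above the others, while DTR replicate 2 lay below Ctrl replicate 1. The mean was 144 ± 63.5 CPM (SD, n = 3) for Ctrl, against 366 ± 286 CPM (SD, n = 3) for DTR. The log2 fold change of 1.34 (SE 0.547, 95% interval from 0.081 to 2.61) had an unadjusted p of 0.0397 and an adjusted p of 0.604 by edgeR. It was 0.51 without DTR replicate 3 and 1.76 without Ctrl replicate 1. The unadjusted p of Col14a1 was 0.0708 with DESeq2. The fibroblast markers were also highest in DTR replicate 3, at 1986 CPM, and with their sum as a covariate the log2 fold change of Col14a1 was 0.38 (SE 0.279).

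Col14a1 did not follow type I collagen in the way Col5a1 did. Its level per kb was 0.0472, 0.0754 and 0.0684 of that of Col1a1 in Ctrl and 0.0833, 0.0863 and 0.213 in DTR, so each DTR library exceeded each Ctrl library, for a ratio chosen after its values were seen. Col12a1, the FACIT known from tissue under tension, was at 210, 80.2 and 72.5 CPM in Ctrl and at 122, 100 and 80.4 CPM in DTR, with a log2 fold change of −0.26 (SE 0.386) that was 0.40 without Ctrl replicate 1 and −0.52 without Ctrl replicate 3. Col14a1 over Col12a1, per kb, was 2.24, 3.26 and 2.87 in Ctrl and 4.78, 3.06 and 18.6 in DTR. Col16a1, a FACIT of fibroblasts and smooth muscle, was steadier, at 167, 130 and 133 CPM in Ctrl and at 127, 113 and 140 CPM in DTR, with a log2 fold change of −0.18 (SE 0.128) that was −0.052 without Ctrl replicate 1. The type IX chains of cartilage were low, with means between 0.238 CPM per kb for Col9a2 and 0.861 for Col9a3. Col9a2 had the lowest log2 fold change of the class, −0.51 (SE 0.703), which was 0.14 without Ctrl replicate 2 and −0.98 without Ctrl replicate 3. Col20a1 was at 1.84 CPM per kb with a log2 fold change of −0.018, and Col19a1 had 13 counts in all.

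Both multiplexins had a log2 fold change below 0. Col15a1 (chromosome 4 from 47208161 to 47313167) and Col18a1 (chromosome 10 from 77052178 to 77166548) encode proteoglycans of the basement membrane zone, and endostatin is cut from the end of the Col18a1 product. Col15a1 was at 168, 56.2 and 92.3 CPM in Ctrl and at 52.2, 90.6 and 79.1 CPM in DTR. Col18a1 was at 83.2, 42.3 and 80.7 CPM in Ctrl and at 34.1, 57.2 and 60.7 CPM in DTR. Both were highest in Ctrl replicate 1 and lowest in DTR replicate 1, a library in which the fibrillar chains were high, and the groups overlapped. The log2 fold changes were −0.51 (SE 0.371, adjusted p = 0.725) and −0.44 (SE 0.294, adjusted p = 0.6998) by edgeR. For Col15a1 the value was −0.0066 without Ctrl replicate 1 and −0.82 without Ctrl replicate 2. For Col18a1 it was −0.21 without DTR replicate 1 and −0.70 without Ctrl replicate 2.

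Of the other chains, all 4 tested had a log2 fold change below 0. Col7a1 (chromosome 9 from 108953586 to 108984875), the anchoring fibril collagen that fastens the epidermis to the dermis, was at 3.18, 2.59 and 7.87 CPM in Ctrl and at 2.21, 1.45 and 2.69 CPM in DTR. The groups overlapped, and Ctrl replicate 3 stood apart from the other 5 libraries. The log2 fold change of Col7a1 was −1.11 (SE 0.480, 95% interval from −2.22 to −0.0025), with an unadjusted p of 0.0496 and an adjusted p of 0.629 by edgeR, and it was −0.45 without Ctrl replicate 3. Of the keratins of basal epidermis, Krt14 was under the floor of 3 counts in every library and Krt5 reached at most 0.1405 CPM. Of the other keratinocyte markers, Krt1 was at 0 CPM in every library and Trp63 reached at most 0.245 CPM. Krt10 and Dsp were above the floor in every library, with at most 0.734 and 3.14 CPM, both in Ctrl replicate 1. The part of keratinocytes in the level of Col7a1 was not tested. Col23a1, a chain that spans the cell membrane, had 0.560 CPM per kb and a log2 fold change of −0.27 (SE 0.375), and Col28a1 had 0.501 CPM per kb and −0.38 (SE 0.327). Without DTR replicate 1 these were −0.070 and −0.19, and without DTR replicate 2 Col23a1 was at −0.65. Col17a1, of the hemidesmosomes of keratinocytes, was at 0 counts in Ctrl replicate 1 and DTR replicate 2, and Col25a1 had 19 counts in all.

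**Figure D5:**
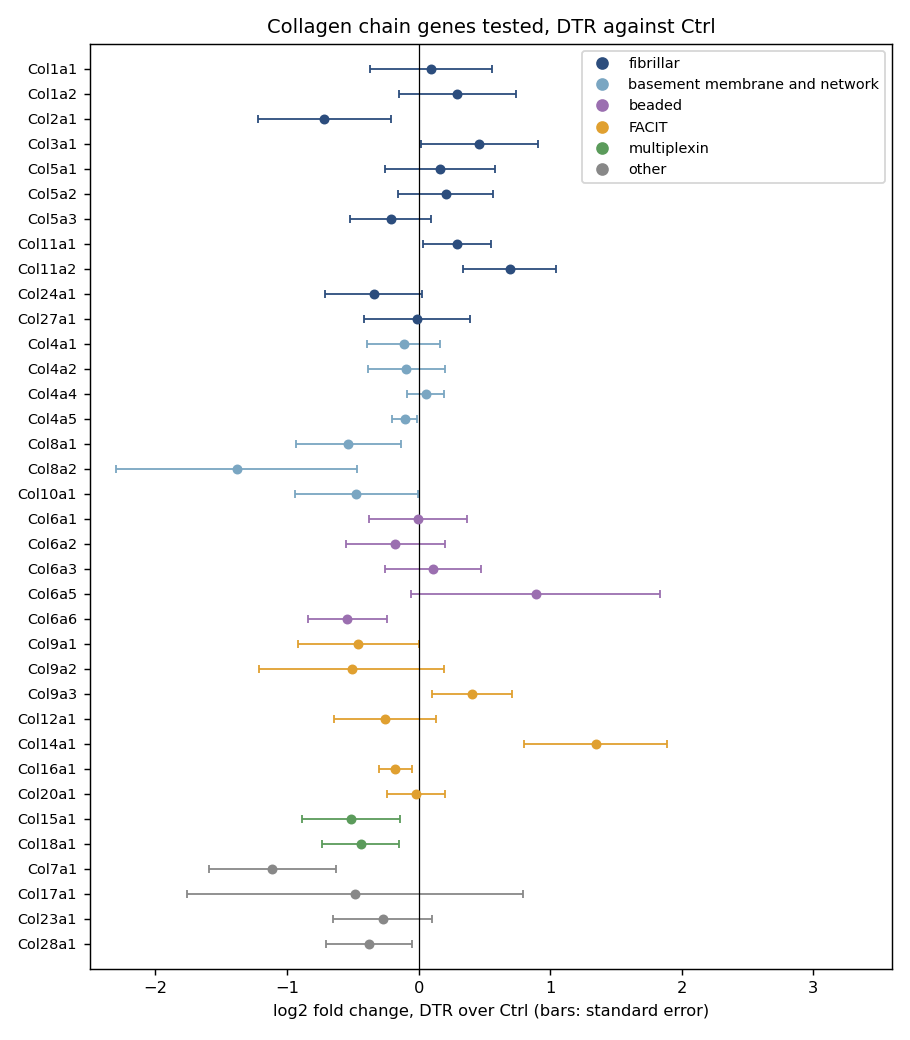
Log2 fold change, DTR over Ctrl, of each of the 36 chains tested, with bars of 1 standard error and colours for the class. The values lie between −1.38 for Col8a2 and 1.34 for Col14a1, and 0 of 36 passed an adjusted p of 0.05 by edgeR.

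Most collagen genes were long. The median genomic span of the 36 tested chains was 91307.5 bases, against 22641 for all genes tested, and 32 of the 36 exceeded the latter, with Col1a1 at 16819 among the exceptions and Col4a5 at 213850. RefSeq promoter windows of GRCm38.p6 were matched for 33 of the 40 chains, which gave 36 windows. The letters GGGCGG, or CCGCCC on the other strand, stood in 22 of these 36 windows (61.1%), against 35.7% of all 32851 windows of the same length. CCAAT or its reverse complement ATTGG stood in 36.1% of the windows of collagen genes and in 37.4% of all windows, and TATAAA or TTTATA in 11.1% and 13.6%. A match of letters is a description and not a binding site.

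Collagen needs chaperones, export and processing before it forms fibrils, and is bound and cut by receptors and proteases. Of 38 such genes listed, 35 were tested, 13 had a log2 fold change below 0 and 22 above 0, 0 passed an adjusted p of 0.05 by edgeR and 4 passed an unadjusted p of 0.05, against the 7.92% of all genes tested. DESeq2 called 2 of the 36 listed genes to which it gave an adjusted p, Mmp9 and Mmp13, against the 0.173% of all genes given above. The paper names both among the genes lower in DTR, and the list was chosen with earlier results of these data known. The shares of this list therefore do not measure an excess over all genes. Among the 14 genes of chaperoning, export and processing, 7 were below 0 and 7 above. Their summed level lay between 2098 and 2942 CPM in the 6 libraries, while the fibrillar share of all counts spanned 2.69-fold. The largest parts of that sum were P4hb, at 722 to 1012 CPM, and Serpinh1, at 568 to 874 CPM. Single genes of these 14 spanned from 1.14-fold for Ppib to 8.51-fold for Pcolce2, so the sum does not describe each of them. Fkbp10, a prolyl isomerase that helps procollagen fold, was at 99.96, 73.8 and 78.8 CPM in Ctrl and at 74.5, 63.4 and 65.0 CPM in DTR, with a log2 fold change of −0.32 (SE 0.133, adjusted p = 0.622 by edgeR). The fibril partners Dcn, Lum, Fmod, Sparc, Tnxb and Fn1 had log2 fold changes above 0 for 5 of 6, and their sum was 3440, 1713 and 1495 CPM in Ctrl and 3129, 2116 and 6135 CPM in DTR, high in the same 3 libraries as type I collagen. Dcn and Lum are also among the fibroblast markers.

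Among the receptors, Ddr2, a tyrosine kinase that binds fibrillar collagen, was at 203, 187 and 178 CPM in Ctrl and at 215, 223 and 366 CPM in DTR. Its groups did not overlap, with a log2 fold change of 0.50 (SE 0.197, adjusted p = 0.604 by edgeR). Among the proteases, the gelatinase Mmp9 was at 9.26, 3.14 and 4.67 CPM in Ctrl and at 1.48, 1.64 and 1.23 CPM in DTR, without overlap, and had a log2 fold change of −1.96 (SE 0.433, adjusted p = 0.602 by edgeR and 0.0101 by DESeq2). The collagenase Mmp13, at 2.94, 0.920 and 12.5 CPM in Ctrl and at 0.465, 0.354 and 1.15 CPM in DTR, had −3.09 (SE 0.941, adjusted p = 0.602 by edgeR and 0.0229 by DESeq2), with overlapping groups. Mmp1a was at 0 counts in every library.

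Markers of other cell types were set beside these values. Endothelial markers summed to between 11.6 and 78.8 CPM, with the highest sum in DTR replicate 3, of which Tek gave 62.8 CPM and Kdr, also highest there, 11.98 CPM. Pecam1 was between 2.61 and 8.02 CPM, while Emcn and Cldn5 were at or under 3 counts in every library and Cdh5 was between 0 and 1.37 CPM. Pericyte and smooth muscle markers summed to 51.7, 23.8 and 29.1 CPM in Ctrl and to 19.3, 22.4 and 16.3 CPM in DTR, so each DTR library was below each Ctrl library. Of the 6 of these markers tested, 5 had a log2 fold change below 0, with a median of −0.82, and Cspg4 had −1.02 (SE 0.334, unadjusted p = 0.0158, adjusted p = 0.602 by edgeR) without overlap. Leukocyte markers summed to between 76.5 and 151 CPM and were lowest in Ctrl replicate 1. Chondrocyte, Schwann, skeletal muscle, keratinocyte and adipocyte markers summed to at most 19.5, 130, 5.75, 4.12 and 0.734 CPM. The part of these cells in the levels of Col4a1, Col4a2, Col15a1 and Col18a1, which vessels also make, was not tested. Per the study's methods, CD45+ and CD31+ cells were excluded by gating when stromal cells were sorted. With the sum of the fibroblast markers as a covariate, an alternative chosen after seeing the data, 31 of the 36 chains had a log2 fold change below 0 and 5 above, 0 passed an adjusted p of 0.05, and 5, Col4a1, Col4a2, Col6a6, Col7a1 and Col16a1, were below an unadjusted p of 0.05, with values between −1.44 for Col7a1 and −0.31 for Col16a1. Over all 15133 genes in that fit, 50.2% were below 0 and 6.58% had an unadjusted p under 0.05.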

How the data were processed

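RNA-seq of 6 libraries, 3 Ctrl and 3 DTR, was used, with groups taken from the sample labels. The authors trimmed reads with cutadapt 3.4, aligned them to GRCm38 with STAR 2.7.3a and counted them per gene with featureCounts 2.0.1 using strand, and the deposited counts are raw. A further column per library, a score made by the authors from the count with DESeq2 scaling and rounding, was not used, as were the columns of the authors' own comparison (fold changes and p-values). Whether reads with several alignments were counted is not given in the sources used here.

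Collagen chains were taken by name with at least 10 counts, and annotated with GENCODE M21. The members and all lists were chosen with earlier results of these data known. Genes passing filterByExpr (minimum count 10, minimum total 15) were scaled by TMM and compared with edgeR 4.0.16 (glmQLFit and glmQLFTest, two-sided, Benjamini-Hochberg over 15133 genes, threshold 0.05) in R 4.3.3, with DESeq2 1.42.0 as an alternative. Standard errors were derived from the log2 fold change and the F statistic, and 95% intervals reach 2.31 standard errors to each side, from the t distribution with the degrees of freedom of the test. The steps were tested on simulated data. Named were, in each class, the 2 chains of the highest level per kb, the lowest and highest log2 fold change, chains with an unadjusted p under 0.05 or groups that did not overlap, and the chains of the ratios. Other chains named were chosen after their values were seen. Alternatives were other size factors, other filters, a replicate block, a loess offset on genomic span, each library left out and a fibroblast marker covariate. The labels do not say whether the replicate numbers pair the libraries. Deviations from the group means of same-numbered libraries correlated with r of 0.114, 0.132 and −0.042. Libraries with different numbers were not compared in this way, so these values cannot decide it.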

Additional observations from a re-analysis of the deposited data

How the results depend on the processing

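Across the 14 alternatives, 0 collagen chains had an adjusted p under 0.05 in any, and the lowest adjusted p of a chain was 0.434, for Col4a5 with the genomic span offset. The number of chains at an unadjusted p under 0.05, 2 as reported, was 1 with RLE size factors, 1 with library size alone, 1 with DESeq2, 3 with genes of at least 1 count, 3 with the genomic span offset, 5 with the fibroblast marker covariate, and between 1 and 7 when single libraries were left out, 7 of 38 without Ctrl replicate 1 against 8.35% of all genes there. Of the 36 chains tested, 17 kept the sign of their log2 fold change under every alternative that gave a value. Col6a1 turned to 0.0065 with RLE size factors, 0.023 with library size alone, 0.0065 with genes of at least 1 count, 0.0062 with DESeq2 and 0.11 with the replicate block. With the genomic span offset Col5a1, Col4a4 and Col6a3 were at −0.0062, −0.11 and −0.0014, but there the median of all genes was −0.075 and 61.5% of all genes lay below 0, and the 17 chains were the same number without this alternative. With the covariate Col1a1, Col1a2, Col3a1, Col5a1, Col5a2, Col4a4, Col6a3 and Col6a5 were at −0.31, −0.21, −0.13, −0.29, −0.15, −0.066, −0.28 and −1.10, the median of the basement membrane and network class was −0.42 and the fibrillar median −0.21. Leaving out single libraries, the basement membrane and network median ran from −0.37 to −0.057 and the FACIT median from −0.22 to 0.14. Over the same fits the log2 fold change ran from −0.19 to 0.85 for Col1a1, 0.010 to 0.95 for Col1a2, 0.091 to 1.02 for Col3a1, −0.11 to 0.81 for Col5a1, −0.0076 to 0.76 for Col5a2, −0.37 to 0.14 for Col4a1, −0.36 to 0.15 for Col4a2, −0.036 to 0.13 for Col4a4, −0.85 to 0.026 for Col8a1, −0.32 to 0.48 for Col6a1, −0.51 to 0.35 for Col6a2, −0.20 to 0.56 for Col6a3, −0.68 to 1.43 for Col6a5, −1.06 to −0.39 for Col2a1, 0.35 to 0.91 for Col11a2, −0.26 to −0.052 for Col16a1, −0.82 to −0.0066 for Col15a1, −0.70 to −0.21 for Col18a1, −0.65 to −0.070 for Col23a1, −0.54 to −0.19 for Col28a1, −0.18 to −0.065 for Col4a5 and −0.98 to 0.14 for Col9a2. Col5a3, Col12a1, Col27a1, Col20a1 and Col17a1, below 0 as reported, reached 0.27, 0.40, 0.46, 0.14 and 0.11. The fibrillar median was 0.56 without Ctrl replicate 1, −0.072 without Ctrl replicate 2, −0.080 without Ctrl replicate 3 and −0.054 without DTR replicate 3. The cause of these shifts was not tested. With the replicate number as a block, Col7a1 and Col6a6 had an unadjusted p under 0.05. Col14a1 then had 0.0752, and it also missed that level with DESeq2 (0.0708), the genomic span offset (0.0619), the covariate (0.206) and without Ctrl replicate 2 (0.112), Ctrl replicate 3 (0.123) or DTR replicate 3 (0.204). The 4 chains under the filter, with 13 to 54 counts in all, were fitted only in some alternatives, and with 3 libraries a group the intervals of most chains spanned a fall as well as a rise.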
